A study of Mus musculus with 6 samples.

Results

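The genes described here form the transcriptional response to amino acid shortage that the transcription factor ATF4 governs, together with the enzymes of serine synthesis and folate-borne carbon transfer and the transporters that bring amino acids into cells. They were chosen by symbol: 33 genes were listed, and all 33 were found among the 56980 Ensembl gene rows of the count table. The symbol Ddit3 belongs to 2 rows, of which the nested one had no read in any library and was set aside. All 33 genes had enough reads to pass the low-count filter and entered a test of 17901 genes.

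ATF4 is made mainly when kinases that sense stress phosphorylate the translation factor eIF2α, which slows protein synthesis at large but favours translation of the Atf4 messenger, so the amount of Atf4 RNA is only part of its control. ATF4 pairs with C/EBP proteins on composite DNA elements and switches on genes that import, make and attach amino acids. In lung cancer cells, NRF2, the factor that KEAP1 holds down, is known to act upstream of ATF4 and of serine synthesis genes.

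The samples were tumours from mouse lung, from a small cell lung cancer model labelled QKO, collected about 4 months after virus was given, to ask how loss of Keap1 alters transcription in this cancer. The 3 control tumours carry the label Control and the 3 others Keap1 knockout, and both groups share the QKO background, whose alleles the labels do not spell out. The labels give neither the way Keap1 was inactivated, nor age, sex or strain, nor whether each sample is a different animal, so the p-values speak of the spread among these samples only. The labels name tumours and no sorting of cells, and in such bulk RNA fewer cells of a type and less RNA per cell cannot be told apart.

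Total counts ran from 18731515 to 23759892 per library. Keap1 itself stood at 78.4, 74.5 and 58.7 CPM (counts scaled to the library total after TMM scaling, the unit of every level below) across the controls and 67.5, 93.0 and 79.9 CPM across the knockouts, both in the order of samples 1 to 3, so its transcript level did not check the genotype. The controls stood apart from one another. The summed level of 9 neuroendocrine markers was 5242 CPM in control 3 and 54.5 to 214 CPM in the other 5 libraries, and Neurod1 had no read in any knockout library. Insm1, a transcription factor gene of neuroendocrine cells, had at most 2 reads in each knockout library, against 354, 28 and 12495 reads in controls 1 to 3. Neurod1 was also down to 3 and 4 reads in controls 1 and 2, whereas Calca, Uchl1 and Ncam1 of the same list were expressed in all 3 knockouts, at levels that overlapped the controls. Squamous markers summed to 7054 CPM in control 1, against at most 141 CPM elsewhere. Sox2 of that list was higher in every control than in any knockout, at 188, 44.7 and 138 CPM against 3.54, 4.35 and 5.93 CPM. It was called lower in knockouts, at an edgeR adjusted p of 0.0304. Fibroblast markers summed to 34245 CPM in control 2, against at most 5010 CPM elsewhere. Col1a1 and Col1a2 made up most of that sum, whereas Col3a1 and Dcn were highest in control 3. The sum of 6 markers of club and alveolar cells, the normal lining of the lung, was 1567, 2525 and 267 CPM in controls. In knockouts it was 3133, 7360 and 7037 CPM, every knockout above every control. Scgb3a2, a secretoglobin gene of club cells, rose among them from 10.9, 27.8 and 6.12 CPM to 194, 245 and 415 CPM, at an edgeR adjusted p of 0.0391. Scgb1a1 and Sftpb also had every knockout above every control, whereas Sftpc and Ager overlapped. Foxj1, a gene of ciliated cells in the same list, went the other way. It had 24.5, 29.8 and 18.9 CPM in controls and 15.6, 18.0 and 11.3 CPM in knockouts. The part of these cell types in the values below was not tested. Calls on the members are given with and without control 3, but fitted values without it are given only for some members.

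In the Keap1 knockout tumours 3 metabolic and hormonal outputs of this response had more RNA, while the other 30 members did not pass the test. Asparagine synthetase (Asns), the mitochondrial phosphoenolpyruvate carboxykinase gene Pck2 and the stress hormone gene Fgf21 rose, by edgeR's quasi-likelihood test at a Benjamini-Hochberg adjusted p below 0.05 over all tested genes, where 4.31% of genes changed. They were 3 of 33 members, where 2.42% of all tested genes rose. Fgf21 entered the test only through its knockout reads and did not pass without the filter on low counts (adjusted p of 0.102 by edgeR), where 2 of 33 members rose, beside 0.781% of all genes higher and 0.502% lower. No member fell by edgeR with or without the filter, and 1.89% of all tested genes fell with it. The sum of the club and alveolar markers was higher in the same libraries, and the part of these cells in the values was not tested. At an unadjusted p below 0.05 edgeR placed 11 members higher and 2 lower (13 of 33, against 30.7% of all tested genes). Limma voom called 4 higher and 0 lower, where it called 3.71% and 2.25% of all genes, or 1 higher (Pck2) with a spread per genotype, where it called 2.21% higher and 2.56% lower. DESeq2 called 8 higher and 2 lower, where by DESeq2 11.8% of all genes were higher and 14.8% lower. The median log2 fold change of the 33 members was 0.53, beside -0.08 over all tested genes. Without control 3 it was 0.38, beside -0.02. With all 6 libraries, 26 of the 33 had a positive value. In 14 members (42.4%) the lowest knockout library exceeded the highest control, against 21.5% of all tested genes, and in 4 (12.1%) every knockout library lay below, against 19.1%.

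**Figure D1:**
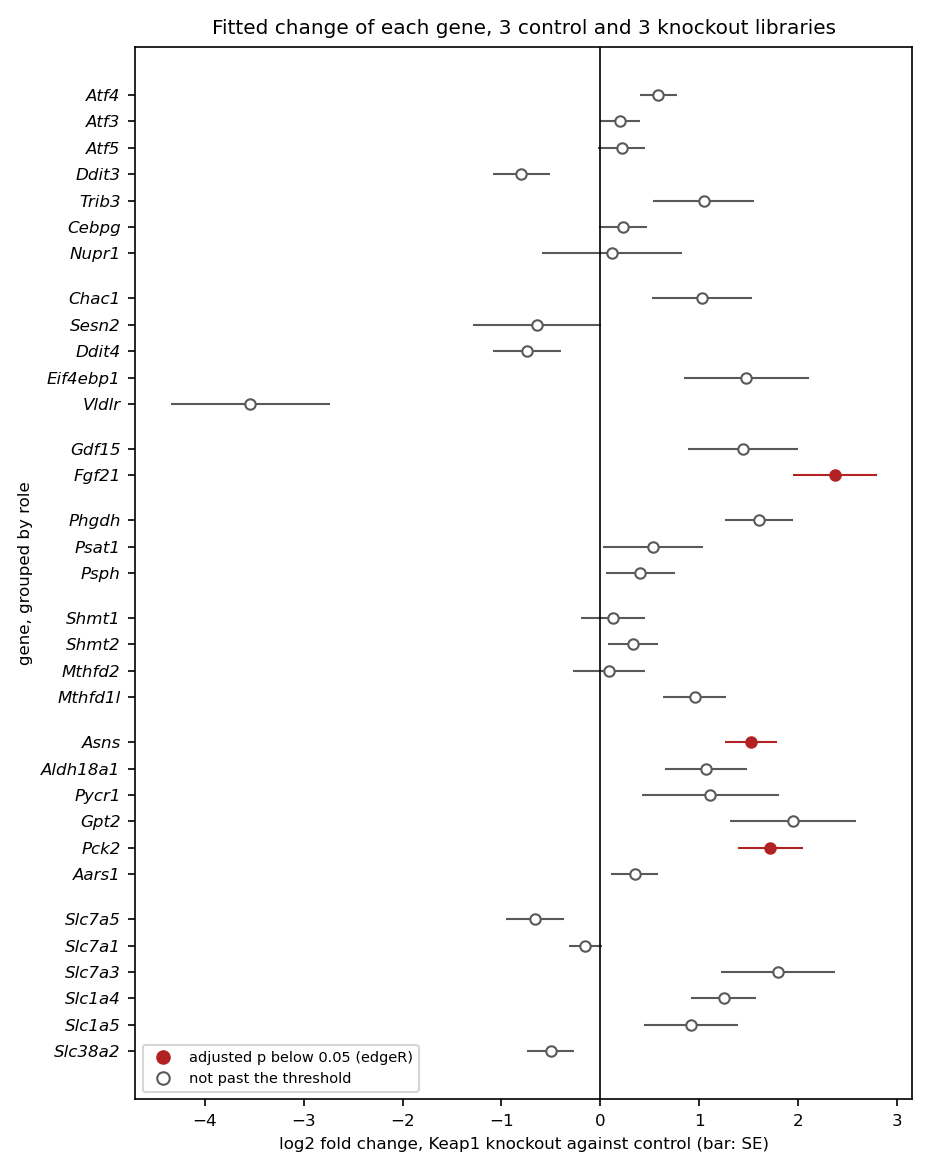
Fitted log2 fold change of each of the 33 genes, Keap1 knockout against control, on the horizontal axis, with its standard error as a bar and genes grouped by role. Filled red points mark Asns, Pck2 and Fgf21, the 3 genes past an adjusted p of 0.05 by edgeR, and Vldlr lies farthest to the left at -3.54.

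Asns makes asparagine from aspartate and glutamine. Its level (ENSMUSG00000029752) was 36.1, 30.4 and 30.7 CPM in the controls, numbered 1 to 3, and 65.0, 121 and 93.5 CPM in knockouts 1 to 3. The controls were close together, and the lowest knockout library was well above all of them. The means of 32.4 ± 3.23 and 93.3 ± 28.2 CPM (SD, n = 3 each) corresponded to a fitted log2 difference of 1.53 ± 0.27 (SE), which edgeR gave an adjusted p of 0.0416.

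Pck2 turns oxaloacetate into phosphoenolpyruvate inside mitochondria and so feeds carbon from amino acids back toward serine and glucose. Pck2 (ENSMUSG00000040618) stood at 73.1, 82.3 and 36.5 CPM in controls and at 188, 222 and 222 CPM in knockouts. The groups did not overlap, and control 3 was the lowest library. The means rose from 64.0 ± 24.2 to 211 ± 19.6 CPM (SD, n = 3 each), a fitted log2 difference of 1.72 ± 0.33 (SE) at an edgeR adjusted p of 0.0478.

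Fgf21, a hormone gene known from liver that stressed cells also switch on, was scarce throughout. Its reads (ENSMUSG00000030827) numbered 4, 7 and 6 in the controls, numbered 1 to 3, and 31, 26 and 42 in the knockouts, or 0.203 to 0.347 CPM against 1.19 to 1.85 CPM. The fitted log2 difference was 2.38 ± 0.42 (SE), at an edgeR adjusted p of 0.0427. Fgf21 could pass the filter only through the group in which it was high, so its presence among tested genes is itself tied to the difference. Without the filter its fitted log2 difference was 2.41 and its call ended, with 0.102 as the edgeR adjusted p.

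The calls of Asns, Pck2 and Fgf21 held in the edgeR test without control 3, at adjusted p of 0.0321, 0.0119 and 0.0383. They ended when any other library was left out, at adjusted p of 0.0596, 0.0640 and 0.0667 without control 1, of 0.0733, 0.0667 and 0.0701 without control 2, and of 0.124 to 0.227 without knockout 1, 2 or 3. Their log2 fold changes without any 1 library stayed between 1.30 and 1.76 for Asns, 1.44 and 1.96 for Pck2, and 2.19 and 2.57 for Fgf21.

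The promoters of the 3 genes that rose are shown because these genes passed the test. Each holds a match to the composite element through which ATF4 and C/EBP factors act. The 300 bases run from 250 before to 50 after the annotated start, 5′ to 3′ on the gene's strand, and come from RefSeq on GRCm38.p6, an earlier build than the mm39 of the counts. Capitals mark matches, on either strand, to TGATGNAA, the letters searched for the composite element, and to TGACNNNGC, the core of the antioxidant response element that NRF2 binds. The Asns window is chr6:7693160-7693459 on the minus strand, the Pck2 window chr14:55540016-55540315 on the plus strand and the Fgf21 window chr7:45615441-45615740 on the minus strand.
Asns: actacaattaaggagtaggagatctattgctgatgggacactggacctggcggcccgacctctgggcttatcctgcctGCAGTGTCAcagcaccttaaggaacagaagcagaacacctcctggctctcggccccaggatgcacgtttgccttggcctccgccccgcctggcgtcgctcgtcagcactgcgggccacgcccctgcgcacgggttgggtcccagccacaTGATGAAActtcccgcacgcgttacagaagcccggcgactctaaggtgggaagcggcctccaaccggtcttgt
Pck2: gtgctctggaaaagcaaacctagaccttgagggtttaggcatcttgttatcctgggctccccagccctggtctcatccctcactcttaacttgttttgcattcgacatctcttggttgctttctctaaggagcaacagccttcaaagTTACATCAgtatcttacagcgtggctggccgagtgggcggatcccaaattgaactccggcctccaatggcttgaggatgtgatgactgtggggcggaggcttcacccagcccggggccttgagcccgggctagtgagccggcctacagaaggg
Fgf21: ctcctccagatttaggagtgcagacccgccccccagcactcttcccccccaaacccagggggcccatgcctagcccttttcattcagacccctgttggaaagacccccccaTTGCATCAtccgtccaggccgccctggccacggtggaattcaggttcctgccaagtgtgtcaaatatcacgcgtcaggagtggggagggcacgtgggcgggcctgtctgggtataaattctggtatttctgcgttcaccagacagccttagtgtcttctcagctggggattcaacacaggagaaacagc
In Asns the composite element ends 16 bases before the start and reads along the gene's strand, and a match to the antioxidant core lies farther upstream, ending 164 bases before the start on the opposite strand. In Pck2 and Fgf21 the element lies on the opposite strand, ending 96 and 132 bases before the start, and neither window holds the antioxidant core.

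Promoters of 29 of the 33 members were in the RefSeq table; those of Eif4ebp1, Slc7a5, Slc7a3 and Slc1a5 were not. TGATGNAA matched in at least 1 promoter of 11 of these 29 genes, and in 11 of their 34 promoters (32.4%), against 3.97% of all 32851 promoters of this length. The members were listed as genes of the ATF4 response, so this share describes the list. Matches in 7 of the other genes are shown as 28-base windows, read on the strand that carries the motif, with the match in capitals, so that the shared core and its varied flanks can be compared.
Trib3: cccgcccggcTGATGTAAacctgagcta
Chac1: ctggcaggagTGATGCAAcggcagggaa
Slc1a4: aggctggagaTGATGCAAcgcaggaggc
Pycr1: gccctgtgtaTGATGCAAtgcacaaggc
Atf3: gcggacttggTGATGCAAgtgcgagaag
Nupr1: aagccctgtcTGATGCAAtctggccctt
Vldlr: ctaggagcgcTGATGCAActattgctgc
Of the 11 genes with a match, 10 had a positive log2 fold change, as had 26 of all 33 members (78.8%). A link between match and change was not tested. The 10 values ran from 0.12 in Nupr1 and 0.20 in Atf3 through 1.03 in Chac1, 1.05 in Trib3, 1.12 in Pycr1 and 1.25 in Slc1a4 to 2.38 in Fgf21. Of the 11, Vldlr alone was negative, at -3.54, and its match lies in the second of its 2 promoters. The antioxidant core TGACNNNGC matched in promoters of 7 of the 29 genes (7 of 34 promoters, 20.6%, against 12.4% of all promoters). One of them was Phgdh, shown as a 29-base window on the strand of the motif, which is opposite to the gene, because this gene had the smallest p among the members of the serine route.
Phgdh: taaactctgcTGACTCCGCctccccgggc
A match is a run of letters and not a measured binding site.

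Among the 7 transcription factors and feedback regulators none passed the edgeR test, with 1 higher and 1 lower at an unadjusted p below 0.05. DESeq2 called Atf4 higher and Ddit3 lower, and limma voom called neither. Atf4 RNA (ENSMUSG00000042406) was 167, 170 and 216 CPM in controls and 248, 296 and 290 CPM in knockouts. Every knockout library was above every control, and control 3 was the highest control. The fitted log2 difference was 0.59 ± 0.19 (SE), at an adjusted p of 0.107 by edgeR, of 0.0349 by DESeq2, and of 0.0328 by edgeR without control 3, where the log2 fold change was 0.72.

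Ddit3, which encodes CHOP, the partner of ATF4 tied to cell death under lasting stress, lay the other way. It stood at 28.2, 20.2 and 18.1 CPM in controls and at 12.5, 14.6 and 11.2 CPM in knockouts, again without overlap. The fitted log2 difference was -0.80 ± 0.28 (SE), at an adjusted p of 0.128 by edgeR and 0.0202 by DESeq2. In GENCODE M21, Ddit3 shares exon bases with the nested locus of its name and with its antisense neighbour Mars, and how the authors' counting treated such bases and strand is not given.

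Trib3, a pseudokinase that dampens ATF4 and a marker of its activity, had 28.6, 25.6 and 7.67 CPM in controls and 38.4, 54.3 and 35.0 CPM in knockouts. The groups did not overlap, but control 3 was far below the other controls, and the adjusted p was 0.220 by edgeR. Atf3 and Atf5, further stress factors of this family, Cebpg, a C/EBP protein that pairs with ATF4, and the stress-induced chromatin protein gene Nupr1 had log2 fold changes from 0.12 to 0.23, with overlapping groups. Nupr1 ranged from 31.9 CPM in control 3 to 247 CPM in control 1, a spread that covered all 3 knockouts at 116, 160 and 108 CPM.

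**Figure D2:**
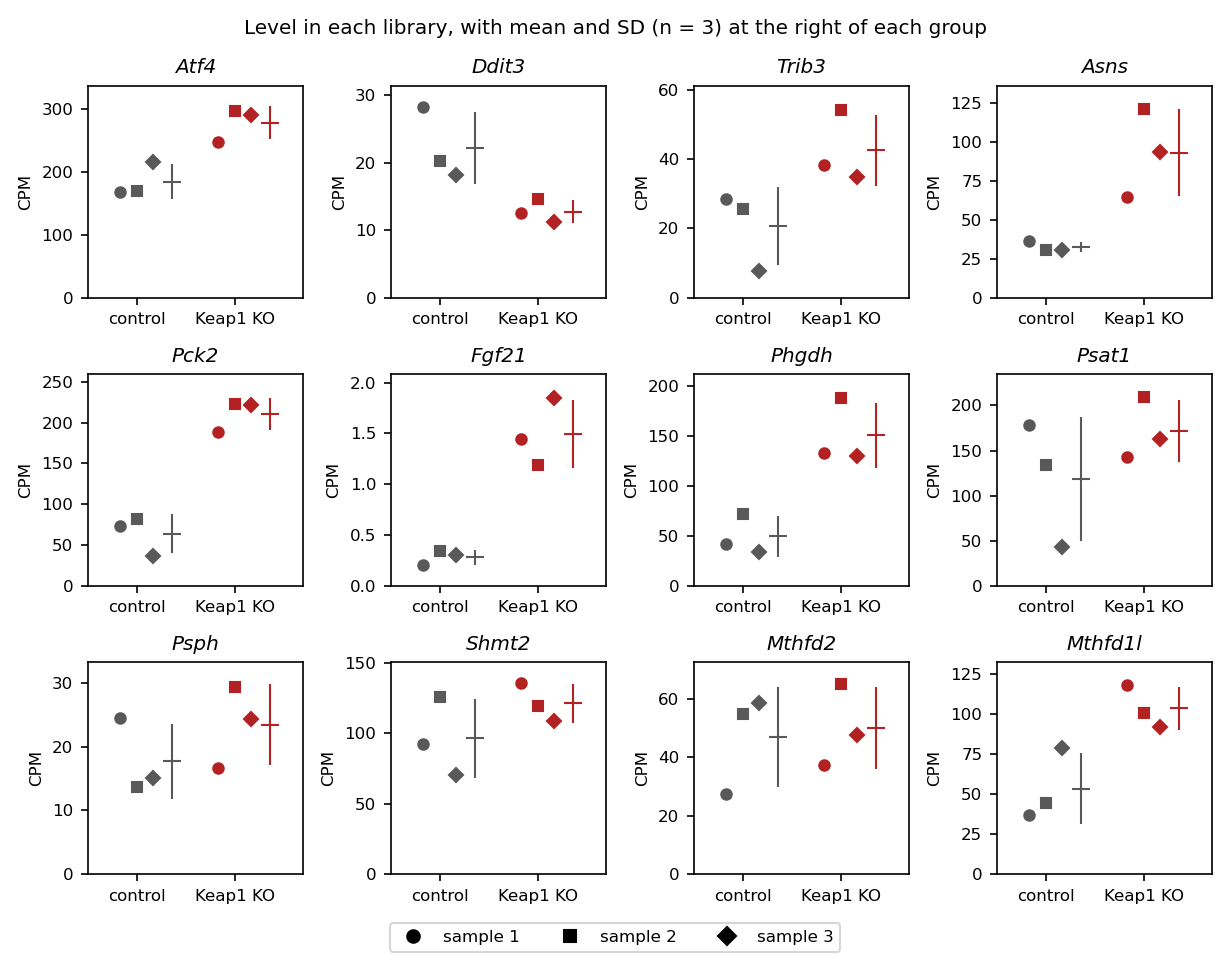
Level in CPM of 12 of the genes in each library (circle, square and diamond for samples 1, 2 and 3 of a group), with the mean and SD (n = 3) beside each group, each panel starting at 0. Atf4, Asns, Pck2, Fgf21, Phgdh, Trib3 and Mthfd1l have every knockout above every control, Ddit3 has every knockout below, and Psat1, Psph, Shmt2 and Mthfd2 overlap.

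Serine is made from a glycolytic intermediate in 3 steps, and the first of them stood apart from the later ones. Phgdh, the dehydrogenase that opens the route (ENSMUSG00000053398), was at 42.2, 72.3 and 33.9 CPM in controls and at 133, 188 and 130 CPM in knockouts. No control came near the lowest knockout. The fitted log2 difference of 1.61 ± 0.34 (SE) narrowly missed the threshold, at an edgeR adjusted p of 0.0553. It passed by DESeq2 (adjusted p of 0.000895), by limma voom (0.0429), and by edgeR without control 2 (0.0495, where 0.773% of all genes were higher and 0.642% lower) or control 3 (0.0390).

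Psat1, the aminotransferase of the next step, stood at 179, 134 and 42.9 CPM in controls and at 142, 209 and 163 CPM in knockouts. Control 3 alone was low, and controls 1 and 2 lay among or close to the knockouts. Psph, the phosphatase that releases serine, had 24.5, 13.6 and 15.1 CPM in controls and 16.7, 29.4 and 24.4 CPM in knockouts, also overlapping. The log2 fold changes were 0.53 ± 0.51 for Psat1 and 0.41 ± 0.35 for Psph (SE), with edgeR adjusted p of 0.506 and 0.461. The difference between the 3 genes was not tested. In GENCODE M21, 10.4% of the exon bases of Psph also lie in a transcript of its antisense neighbour Cct6a.

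Of the enzymes that pass the carbon of serine to folate, Mthfd1l had groups that did not overlap and the other 3 overlapped. None of the 4 passed the edgeR test, 1 was higher at an unadjusted p below 0.05, and DESeq2 and limma voom called 0. Mthfd1l, which releases formate from mitochondrial folate, had 37.1, 44.2 and 78.5 CPM in controls and 118, 100 and 91.6 CPM in knockouts. Its groups did not overlap, and control 3 was the nearest control to the knockouts. The fitted log2 difference was 0.96 ± 0.32 (SE) at an edgeR adjusted p of 0.114, and 1.35 with an adjusted p of 0.0169 without control 3.

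Shmt2, the mitochondrial enzyme that splits serine into glycine and a folate-bound carbon, was at 92.7, 126 and 70.6 CPM in controls and at 136, 120 and 108 CPM in knockouts. Mthfd2, the mitochondrial dehydrogenase that follows it and a widely used ATF4 target, had 27.3, 54.9 and 58.6 CPM in controls and 37.2, 65.2 and 47.6 CPM in knockouts. Both overlapped, with log2 fold changes of 0.33 ± 0.25 and 0.09 ± 0.36 (SE). The cytosolic counterpart Shmt1 had a value of 0.13 ± 0.32 (SE), and its knockouts lay within 57.1 to 60.2 CPM inside a control range of 31.8 to 75.7 CPM.

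The remaining enzymes held 2 of the 3 genes that rose, Asns and Pck2, and all 6 had positive log2 fold changes, with a median of 1.32. Gpt2, the mitochondrial alanine aminotransferase gene, had the largest fold of the 6, at 64.5, 26.3 and 12.9 CPM in controls and 79.1, 175 and 147 CPM in knockouts. Its controls differed among themselves by more than control 1 differed from knockout 1, and the fitted log2 difference of 1.95 ± 0.64 (SE) had an adjusted p of 0.111 by edgeR and 0.0214 by DESeq2. In proline synthesis, Aldh18a1, which makes the glutamate semialdehyde, had 19.4, 47.3 and 19.8 CPM in controls and 51.1, 76.7 and 54.2 CPM in knockouts. Pycr1, the mitochondrial reductase that completes proline, overlapped, with 16.0 CPM in control 2 against 12.2 CPM in knockout 1. The alanyl-tRNA synthetase gene Aars1 ranged from 139 to 211 CPM in controls and from 194 to 270 CPM in knockouts. In GENCODE M21, 14.3% of its exon bases also lie in Exosc6 on the same strand, so its counts are less certain.

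Genes that restrain growth or export the stress signal went in both directions. Of the 5 stress effectors none passed the edgeR test, with 0 higher and 1 lower at an unadjusted p below 0.05, and DESeq2 called Vldlr lower while limma voom called 0. Vldlr, the very-low-density lipoprotein receptor gene, stood at 59.9, 118 and 13.7 CPM in controls and at 4.48, 7.69 and 4.22 CPM in knockouts. Even the lowest control exceeded every knockout. The fitted log2 difference was -3.54 ± 0.81 (SE), at an adjusted p of 0.0616 by edgeR and 7.53e-05 by DESeq2, and without control 3 it was -4.02 at an edgeR adjusted p of 0.0119. Over all 33 members this was the largest absolute log2 fold change.

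Eif4ebp1, the cap-binding repressor of translation, had 63.9, 38.8 and 9.91 CPM in controls and 89.0, 127 and 97.9 CPM in knockouts. The groups were apart, and the fitted log2 difference of 1.48 ± 0.63 (SE) had an edgeR adjusted p of 0.175. Ddit4, an inhibitor of the growth kinase mTORC1, had 167, 230 and 128 CPM in controls and 123, 64.7 and 127 CPM in knockouts, so the groups were apart by a narrow margin between control 3 and knockout 3. Sesn2, a leucine sensor upstream of the same kinase, and Chac1, which breaks down glutathione, overlapped, with log2 fold changes of -0.64 ± 0.65 and 1.03 ± 0.50 (SE).

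Of the secreted factors, Gdf15, a stress hormone that curbs appetite, stood at 28.7, 16.9 and 5.83 CPM in controls and at 49.1, 50.2 and 40.8 CPM in knockouts. It shared with Fgf21 the lack of overlap, with a fitted log2 difference of 1.44 ± 0.55 (SE) at an edgeR adjusted p of 0.146.

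Among the 6 amino acid transporters, none passed the edgeR test, 2 were higher and 0 lower at an unadjusted p below 0.05, DESeq2 called Slc1a4 and Slc7a3 higher, and limma voom called 0. Slc1a4, an exchanger of serine, alanine and other small neutral amino acids, had 31.7, 22.5 and 30.7 CPM in controls and 90.9, 69.0 and 41.8 CPM in knockouts. This was the member of the group nearest the threshold, with a fitted log2 difference of 1.25 ± 0.33 (SE) at an edgeR adjusted p of 0.0771. Slc7a3, a carrier of cationic amino acids, was at 2.89, 2.38 and 3.04 CPM in controls and at 3.68, 15.4 and 9.89 CPM in knockouts, so knockout 1 was barely above the controls. The glutamine carrier gene Slc1a5 was at 114, 148 and 39.8 CPM in controls and at 158, 207 and 205 CPM in knockouts, without overlap and at an edgeR adjusted p of 0.240.

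The other 3 transporters had negative log2 fold changes. Slc38a2, a sodium-coupled carrier of neutral amino acids that cells raise when starved of them, stood at 335, 319 and 509 CPM in controls and at 260, 275 and 287 CPM in knockouts, every knockout below every control. Slc7a5, the leucine carrier, had 160, 101 and 165 CPM in controls and 72.5, 120 and 77.1 CPM in knockouts, where control 2 and knockout 2 crossed. Their log2 fold changes were -0.50 ± 0.24 and -0.66 ± 0.29 (SE), with edgeR adjusted p of 0.209 and 0.190. Slc7a1, another cationic carrier, was within 69.8 to 90.2 CPM in all 6 libraries.

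**Figure D3:**
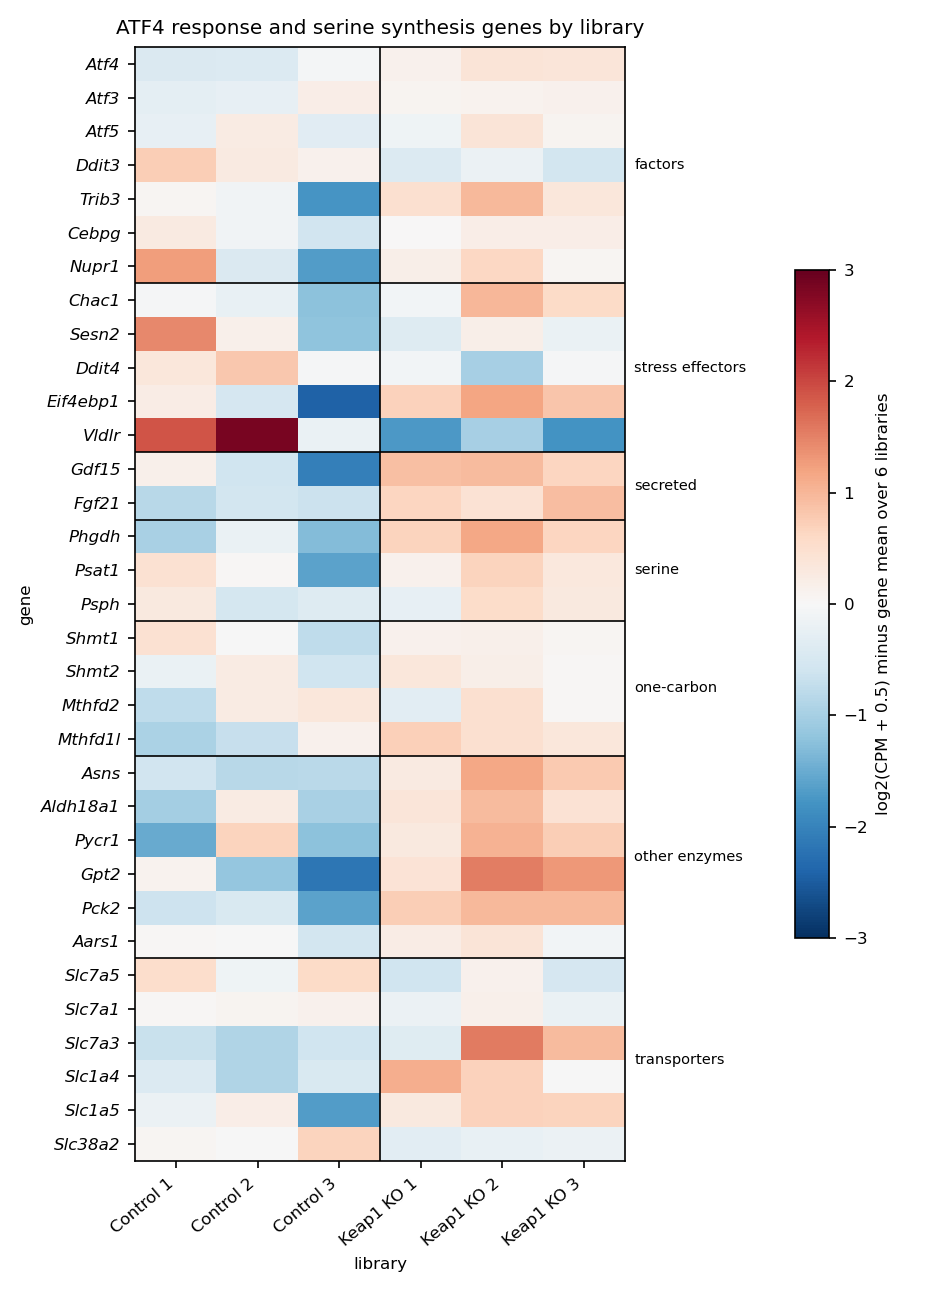
Heat map of the 33 genes (rows, grouped by role) in the 6 libraries (columns), as log2(CPM + 0.5) minus the mean of each gene over the libraries. Control 3 holds the darkest blue cells, as in Eif4ebp1, Gpt2 and Gdf15, and knockout 2 is the highest knockout library for 25 of the 33 genes.

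The order of the libraries within a group was uneven over the members. Knockout 2 was the highest of the 3 knockouts for 25 of 33 members (75.8%), whereas it was the highest for 28.6% of all tested genes. The median member lay 0.28 above its knockout mean in knockout 2, on the log2(CPM + 0.5) scale, and 0.16 below it in knockout 1 (-0.16), beside -0.01 and 0.00 for the median of all tested genes. Asns (65.0, 121 and 93.5 CPM in knockouts 1 to 3), Slc7a3, Chac1, Gpt2, Psph and Trib3 all had this order of knockout 2 on top. Knockout 2 also had the highest summed level of 6 myeloid markers among the knockouts, at 1106 CPM against 526 and 598 CPM. Lyz2 alone made up 1004 CPM of that sum. Adgre1 was also highest in knockout 2, by a small margin, whereas Cd68, Csf1r, Itgam and C1qa were highest in knockout 1. The sum of 6 club and alveolar markers was highest in knockout 2 too, at 7360 CPM against 3133 and 7037 CPM, though Scgb1a1 and Scgb3a2 were highest in knockout 3. The part of these cells in the pattern was not tested.

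Control 3 was the lowest control for 19 of 33 members (57.6%), where it was the lowest for 41.0% of all tested genes, and the median member lay 0.40 below its control mean there (-0.40), beside -0.02 for all tested genes. Another 8 members were highest in it, among them Atf4 at 216 CPM, Slc38a2, Mthfd1l and Mthfd2, whereas Trib3, Psat1, Pck2, Phgdh, Gpt2, Gdf15 and Eif4ebp1 were lowest in it. This was also the library with 5242 CPM of neuroendocrine markers, with the lowest sum of club and alveolar markers (267 CPM, against 1567 to 7360 CPM elsewhere) and with the lowest sum of myeloid markers (211 CPM, against 526 to 1124 CPM). The myeloid marker Lyz2 was at 90.4 CPM there, against 397 to 1004 CPM elsewhere. Cd68 and Itgam were also lowest in control 3, whereas Adgre1, Csf1r and C1qa there exceeded every knockout. The part of these cells was not tested. Without control 3 the edgeR test called 6 members higher (18.2%), namely Asns, Pck2, Fgf21, Phgdh, Atf4 and Mthfd1l, and Vldlr lower (3.03%), where 8.40% and 8.80% of all tested genes were called. The spread among controls exceeded that among knockouts in 26 of 33 members (78.8%), as in 83.6% of all tested genes, with median SDs of 0.56 and 0.28 on the log2(CPM + 0.5) scale.

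The authors' deposited table of their comparison held all 33 members. By the authors' deposited table, 7 members were higher at an adjusted p below 0.05 (Asns, Pck2, Fgf21, Phgdh, Gpt2, Slc7a3 and Slc1a4) and Vldlr was lower, where 7.10% and 10.7% of its 22441 genes were called. Atf4 had an adjusted p of 0.0978 in the authors' deposited table, and Ddit3 one of 0.0723. The sign of the log2 fold change there was the same as in the edgeR fit for all 33, from the same counts.

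Around these genes, 6 lists of related functions held 112 genes, of which 110 were tested. By edgeR 4 rose and 2 fell (3.64% and 1.82%), near the 2.42% and 1.89% of all tested genes. Upstream of ATF4, of 10 genes for eIF2α kinases, phosphatase subunits and their regulators none passed the edgeR test, with 1 higher and 1 lower at an unadjusted p below 0.05, limma voom called 0 and DESeq2 called Ppp1r15a higher. That gene, also called Gadd34 and a feedback target of ATF4, had the smallest p of the list, with 36.8, 28.1 and 33.8 CPM in controls and 43.5, 51.3 and 60.0 CPM in knockouts, at an edgeR adjusted p of 0.109. Eif2ak2, which encodes PKR, the eIF2α kinase that senses double-stranded RNA, lay the other way, at 76.3, 63.5 and 51.2 CPM in controls and 49.1, 42.9 and 38.3 CPM in knockouts. Its groups did not overlap, and its edgeR adjusted p was 0.149, while edgeR called it lower without control 3.

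The cytosolic aminoacyl-tRNA synthetases other than Aars1, which charge transfer RNAs and include many ATF4 targets, numbered 19 genes. All 19 had positive log2 fold changes, from 0.10 to 1.11 with a median of 0.43, where 46.1% of all tested genes were positive. In 13 of 19 (68.4%) every knockout library lay above every control, against 21.5% of all tested genes, and in the other 6 the groups overlapped. None passed the edgeR test, with 8 higher and 0 lower at an unadjusted p below 0.05, limma voom called 0, and DESeq2 called Cars1, Hars1, Qars1 and Sars1. Sars1, the seryl-tRNA synthetase gene, had the smallest p, at 161, 121 and 110 CPM in controls and 215, 265 and 210 CPM in knockouts, a fitted log2 difference of 0.82 ± 0.22 (SE) at an edgeR adjusted p of 0.0761.

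**Figure D4:**
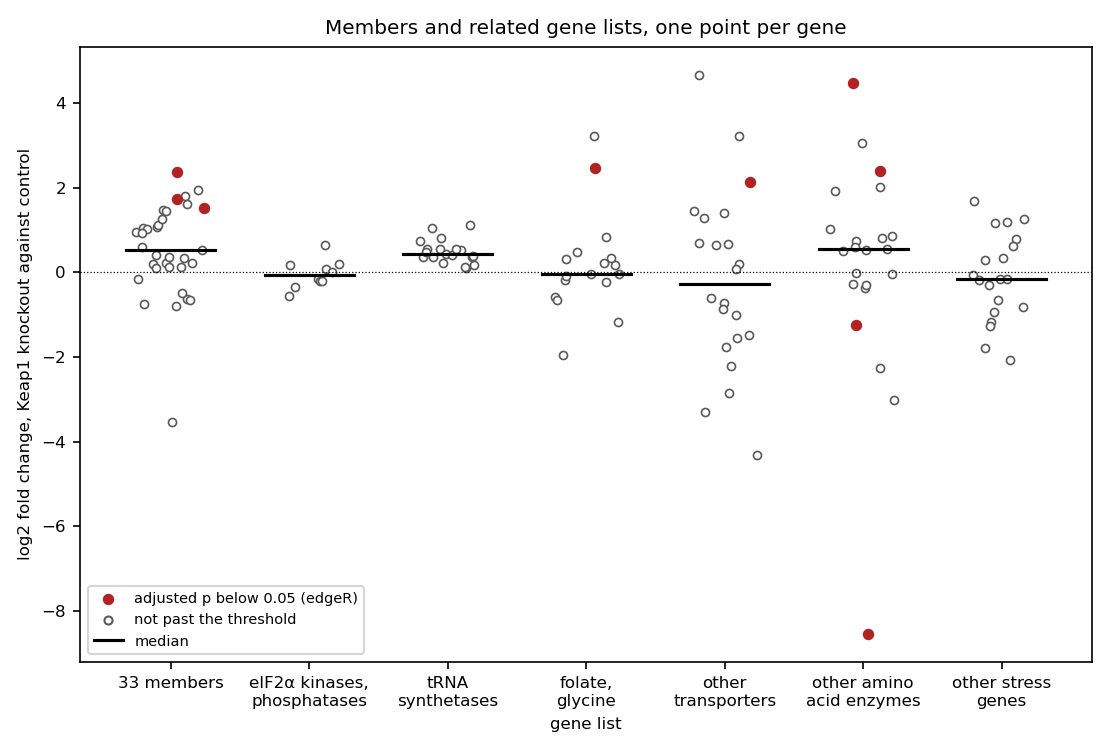
Log2 fold change of each tested gene (points), Keap1 knockout against control, for the 33 members and 6 related lists, with the median of each list as a line and genes past an adjusted p of 0.05 by edgeR in red. The tRNA synthetases form a narrow band from 0.10 to 1.11, all above 0, while the other transporters and enzymes spread widely in both directions.

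Among the 17 genes listed as other folate and glycine genes Aldh2 alone passed the edgeR test. It encodes an aldehyde dehydrogenase that is not an enzyme of either route, so no folate or glycine gene of the list passed this test. Aldh2 stood at 80.1, 94.9 and 34.2 CPM in controls and at 434, 392 and 338 CPM in knockouts. The fitted log2 difference was 2.48 ± 0.41 (SE) at an edgeR adjusted p of 0.0400. By DESeq2 3 of the list were higher (Aldh2, Gldc and Gcsh) and 1 lower (Slc25a32), beside 11.8% and 14.8% of all genes. EdgeR without control 3 made the same calls. Limma voom called Aldh2 and Gldc higher, or Aldh2 alone with a spread per genotype. Gldc had 3.05, 1.34 and 0.498 CPM in controls and 8.53, 20.7 and 16.5 CPM in knockouts, at an edgeR adjusted p of 0.0662. Of 22 other amino acid transporters tested, 1 rose by edgeR (4.55%, beside 2.42% of all tested genes) and 0 fell. Their median log2 fold change was -0.27. In 36.4% every knockout lay above every control and in 22.7% below, beside 21.5% and 19.1% of all tested genes. DESeq2 called 5 higher and 4 lower, and limma voom 3 higher. Slc3a2, the chain that the Slc7a5 and Slc7a11 carriers both need at the membrane, was the gene that rose by edgeR. It went from 251, 158 and 116 CPM to 560, 943 and 813 CPM, at an edgeR adjusted p of 0.0418. Slc7a11, the cystine carrier and a target of both ATF4 and NRF2, had 178, 10.6 and 2.49 CPM in controls and 977, 2086 and 1773 CPM in knockouts, but did not pass at an edgeR adjusted p of 0.122. DESeq2 and limma voom, with either form of spread, called it higher. Its partner-sharing relative Slc7a5, described above, had a negative value.

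Among 22 other amino acid enzymes tested, 2 rose and 2 fell (9.09% each, beside 2.42% and 1.89% of all tested genes), of which 3 are described. Cth, which makes cysteine from cystathionine and is a known ATF4 target, rose from 3.45, 1.59 and 0.647 CPM to 26.7, 56.7 and 44.0 CPM, a fitted log2 difference of 4.48 ± 0.71 (SE) at an edgeR adjusted p of 0.0390. Bcat2, the mitochondrial branched-chain aminotransferase gene, rose from a mean of 23.8 ± 11.4 to 125 ± 28.2 CPM (SD, n = 3 each), at an edgeR adjusted p of 0.0435. Bcat1, the cytosolic aminotransferase gene, fell from 16.4, 5.80 and 34.6 CPM to 3 reads over the 3 knockouts, all in knockout 3, at an edgeR adjusted p of 0.0391.

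Of 20 further stress genes downstream of ATF4 or CHOP none passed the edgeR test, with 3 higher and 4 lower at an unadjusted p below 0.05, limma voom called 1 higher and 1 lower, and DESeq2 called 2 higher and 4 lower. Stc2, a secreted glycoprotein gene of the stress response, had the smallest p, at 28.6, 17.9 and 13.5 CPM in controls and 4.34, 6.27 and 3.65 CPM in knockouts, at an edgeR adjusted p of 0.0523. The calls of Aldh2, Slc3a2, Cth, Bcat2 and Bcat1 belong to a test whose calls over all 6 lists numbered 32 without control 3, 7 without control 1, 3 without control 2 and 0 without knockout 1, 2 or 3. Over all genes the same tests called 3209 of 18656 without control 3, 735 of 18805 without control 1, 269 of 19006 without control 2, and 2, 0 and 0 without knockouts 1, 2 and 3.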

How the data were processed

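Messenger RNA of 3 control and 3 Keap1 knockout tumours was read from the deposited table of raw counts per Ensembl gene, with each column assigned through the sample descriptions in the labels. The authors aligned reads with STAR to mm39, as listed per the submitters' processing notes. Which program counted reads, on which annotation and with what strand setting, is not given in the labels or file headers. The authors' deposited table of their comparison, made with DESeq2 per the file headers, holds a mean of normalized signal, log2 fold changes with errors, a Wald score and p-values per symbol. Its sign was checked against the counts and is positive where the knockout is higher.

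Symbols came from a table that named 52073 of 56980 identifiers, with newer names matched through RefSeq synonyms. Genes were filtered with filterByExpr, scaled by TMM and tested in edgeR 4.0.16 (R 4.3.3; glmQLFit, robust, two-sided, genotype as the only term). P-values were adjusted over all 17901 genes tested (threshold 0.05). Standard errors come from the quasi-likelihood F. The alternatives changed the scaling (RLE, upper quartile), the filter (none, or 1 CPM in 3 samples), the tool (DESeq2 1.42.0, or limma 3.58.1 voom, with a common spread or one for each genotype) or the samples (each left out in turn, or the sample number as a block). The script for edgeR was first tested on simulated data. Members, lists and the naming rule were chosen with earlier results of these data known. All members are named, with every sample's value for those past the threshold, those without overlap and a fixed set that also holds Slc7a11, and of each related list up to 4 genes past the threshold or the 1 with the smallest p. Outside this rule, Eif2ak2, Gldc and the DESeq2 calls Cars1, Hars1, Qars1, Gcsh and Slc25a32 were named after their values were seen. A few single values and 1 sequence are not reported here.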

Additional observations from a re-analysis of the deposited data

How the results depend on the processing

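The count of all genes past the threshold was 771, and it was 465 without the filter, 4642 by DESeq2 and 0 with the sample number as a replicate block, and ran from 0 to 3209 without any 1 library. The members that rose numbered 3 in the edgeR test, 2 without the filter (Fgf21 did not pass), 8 by DESeq2, 1 (Pck2) by limma voom with a spread per genotype and 0 under the block, and 0 to 6 without any 1 library. The members that fell numbered 0, and 2 by DESeq2 (Ddit3 and Vldlr) and 0 to 1 without any 1 library. Calls on the 6 related lists numbered 6, and 31 by DESeq2, 12 by limma voom, 10 by limma voom with a spread per genotype, 0 under the block and 0 to 32 without any 1 library. The replicate block uses up residual degrees of freedom, and left 4026 genes at an unadjusted p below 0.05. The other causes were not tested. Deviations of same-numbered samples from their group means correlated between 0.00012 and 0.0507 across genes, so the numbers were not taken to pair the samples, and not every sample correlated best with its own number.

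The median log2 fold change of the members ran from 0.38 to 0.75 over the alternatives. Of the 3 members that rose, Asns kept its call in 7 of 14 alternatives, Pck2 in 8 and Fgf21 in 6. Of 462 values of single members over the 14 alternatives, 421 kept direction and side of the threshold, uncalled members included. The sign turned in 7, all without 1 library and in genes far from the threshold: Sesn2 (0.26 without control 1, in a range from -1.08), Mthfd2 (-0.18 without control 1 and -0.14 without knockout 2, in a range up to 0.29), Nupr1 (-0.11, -0.33 and -0.06 without control 2, control 3 and knockout 2, in a range up to 1.25) and Shmt1 (-0.14 without control 3, in a range up to 0.47). Counting error is largest for Fgf21, with 4 to 42 reads. It also matters for Slc7a3, Chac1 and Pycr1, with as few as 48, 60 and 63 reads in a library. For the other members the precision is set mainly by 3 samples a group.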
